A study of Mus musculus with 40 samples.

Results

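A set of 29 of the 24732 genes measured in mouse follicular (FO) B cells was at least 2-fold higher, with 1 TPM added to each mean, in cells that had lost Ikaros than in their controls after either of 2 stimuli. TPM is a transcript level corrected for gene length and library size. A gene was taken where the log2 of (mean TPM with loss + 1) over (mean TPM of control + 1) was 1 or more with hen egg lysozyme (HEL) and with CpG, with a mean of 5 TPM or more in both loss groups. With immunoglobulin and T cell receptor segments and the genes that the rule names left out, 148 genes met the HEL part and 117 the CpG part. Before that step, 40 genes met both parts. Of these, 11 were left out: the immunoglobulin segment Ighd2-8, and Eng, Ctnnd1, S100a1, Wls, Alox5ap, Tmem176a, Tmem176b, Dkkl1, Ifitm2 and Aif1, which the rule names. The 29 genes were thus chosen by their TPM in the HEL and CpG libraries, so their differences in these libraries are given as a description with no test. Naive and anergic cells took no part in the choice, and tests were run there.

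Ikaros, encoded by Ikzf1, is a zinc finger protein that binds DNA in lymphoid cells and both lowers and raises transcription, in part through the NuRD chromatin remodelling complex. It is needed early for the lymphoid lineages, and in mature B cells it is known as a brake on activation through the B cell receptor and Toll-like receptors. Anergic B cells are self-reactive cells that stay alive but answer poorly to their antigen.

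All 28 RNA-seq libraries came from FACS-sorted FO B cells of C57BL/6 mice that carried the MD4 transgene, which gives nearly all B cells 1 receptor, against HEL. Loss in naive cells was Cd23-cre Ikzf1(fl/-) (2 libraries) against Cd23-cre Ikzf1(fl/+) (2 libraries). HEL was given intravenously 1 day before the sort, and these libraries compare Cd23-cre Ikzf1(fl/fl) with Ikzf1(fl/fl) (5 libraries each), so that only the loss group carried Cre. CpG, which activates Tlr9, was added in culture for 1 day. Here Cd23-cre Ikzf1(fl/-) is compared with Cd23-cre Ikzf1(fl/+) (4 libraries each), so that both groups carried Cre. The controls of CpG and of naive loss cells thus had 1 intact allele and 1 that Cre could delete, unlike the HEL controls without Cre. Anergic cells (3 libraries) came from mice that also carried ML5, a transgene for soluble HEL. They were Ikzf1(fl/fl), Ikzf1(fl/+) and Cd23-cre Ikzf1(fl/+), and are numbered 1 to 3 in that order. Their naive counterparts (3 libraries) were Ikzf1(fl/+), Ikzf1(fl/+) and Cd23-cre Ikzf1(fl/+). The library numbers begin with 36 for naive loss cells and their controls, with 49 for CpG and with 57 for the others, and are called series here. The CpG numbers run without a gap, and their lower and upper 4 numbers, each with 2 libraries of either genotype, are called blocks here, although no label names them as batches. Cd23-cre acts late in B cell development, so the loss cells had matured with Ikaros. The labels give no age and do not say whether replicates were separate animals, so spread and p-values concern these samples and may be technical in part.

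Depth was 12126702 to 25424364 recovered reads per library. Ikzf1 was 57.3 to 65.3 TPM in naive loss cells against 120 to 136 TPM in their controls, 60.3 to 79.3 TPM in HEL loss cells against 195 to 261 TPM in HEL controls, and 31.7 to 39.5 TPM in CpG loss cells against 135 to 172 TPM in CpG controls. The groups did not overlap in any of these 3 settings, as the labels state, and reads from the gene remained. In anergic cells Ikzf1 was 304, 319 and 179 TPM, the last in the library with Cre, against 143, 219 and 146 TPM in the naive libraries of the same series. The B cell marker Cd79a was high in every naive, HEL and anergic library, at 5493 TPM or more, but lower in loss cells, at 5493 to 6097 TPM in HEL loss cells against 7207 to 8123 TPM in HEL controls. The sum of 10 follicular B cell markers, of which Cd79a is the largest, was lower without overlap. It was at 12264 to 13789 TPM in HEL loss cells against 14834 to 15889 TPM in HEL controls. In naive cells it was at 15447 to 16446 TPM in loss cells against 16719 to 17003 TPM in controls. Cd79a alone was at 6908 to 8268 TPM in these naive loss cells against 8822 to 9023 TPM in controls. Of these 10 markers, 5 were lower without overlap with HEL, against 16.3% of genes, and 7 with CpG, against 8.62%, with Cr2, Cxcr5 and Ebf1 in both. In naive cells 3 were lower and 3 higher without overlap. The part of these shifts in the members' levels was not tested. With CpG, Cd79a was 762 to 1247 TPM in loss cells and 962 to 1570 TPM in controls, and Fcer2a, the Cd23 gene that defines FO cells, was 15.1 to 68.4 TPM in loss cells against 4.61 to 59.4 TPM in controls. In bulk RNA, fewer cells of a type and less RNA per cell cannot be told apart. Y-linked transcripts were present in 1 library and absent in 1 in each group of the naive loss comparison. In each HEL group they were present in 2 libraries and absent in 3. All libraries of the other groups had them.

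With HEL, all 29 genes were higher in every loss library than in every control library. The background for such separation was 8.99% of the 10526 genes whose mean over all libraries was 1 TPM or more, and it supports nothing here because the same libraries chose the genes. With CpG, 28 of the 29 were higher without overlap, against a background of 11.9%. Zfp385a was the exception: it overlapped over all 8 CpG libraries, but not within either of the 2 blocks of CpG library numbers. The blocks are parts of the libraries that chose the genes, so this too supports nothing. The median log2 ratio of the members was 1.96 with HEL and 1.4 with CpG, and of all 10526 genes -0.08 and 0.01. The ratio was larger with HEL for 24 of the 29. The 5 with a larger ratio in CpG were Rassf4, Fes, Spn, Gna15 and Trappc5.

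**Figure D1:**
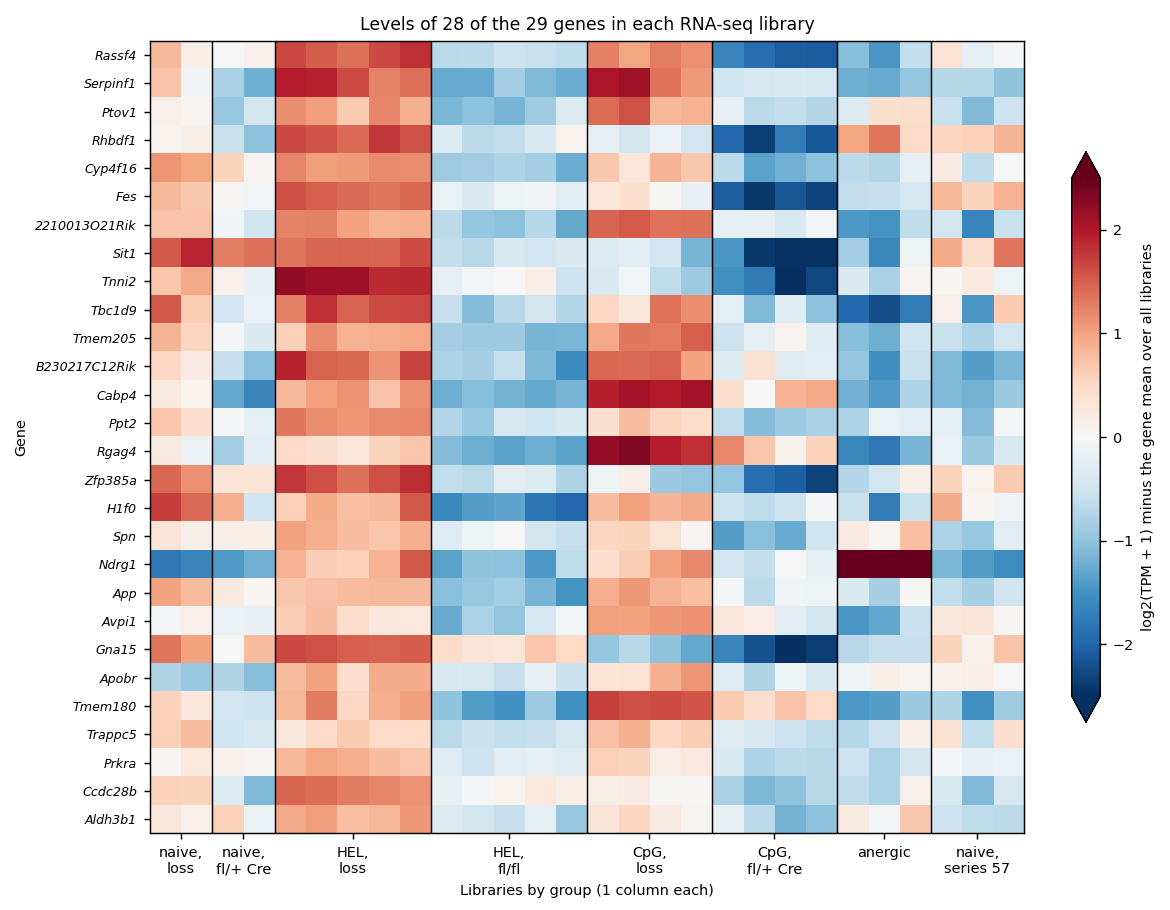
Levels of 28 of the 29 genes (rows, in the order of the smaller of their HEL and CpG log2 ratios) in each of the 28 libraries (columns), as log2(TPM + 1) minus the mean of the gene over all libraries. Red is above and blue below that mean, with colours clipped at 2.5 in either direction. HEL and CpG loss columns are red for most genes, and anergic columns are blue for most genes except Ndrg1, where all 3 are past the end of the scale.

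Several members act in signalling. Rassf4, a Ras association domain protein, had the largest CpG ratio. With CpG it was at 46.6, 38.2, 47.3 and 42.6 TPM in loss cells, against 5.28, 4.31, 3.76 and 3.69 TPM in controls, a log2 ratio of 3.09. With HEL it was at 60.9, 55.2, 50.6, 60.8 and 68.7 TPM in loss cells and 11.3, 11.6, 12.8, 12.5 and 11.7 TPM in controls, a log2 ratio of 2.21. The lowest loss library stood far above the highest control in both stimuli. The files mark Rassf4 and Tmem205 as overlapping another gene model, so some of their reads may belong to a neighbour.

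Fes encodes a cytoplasmic tyrosine kinase known mainly from myeloid cells. With HEL it was at 77.6, 71.3, 67.6, 63.5 and 68 TPM in loss cells against 21.8, 19, 22.4, 23.2 and 19.98 TPM in controls. With CpG it was at 30.5, 33.4, 25.2 and 21.6 TPM in loss cells against 5.12, 3.84, 4.84 and 4.16 TPM in controls, and the range of the CpG loss cells overlapped that of the HEL controls. Its log2 ratios were 1.67 with HEL and 2.38 with CpG. Gna15, a G protein alpha subunit of blood cells in the Gq family, was also higher with both stimuli. It was at 119, 114, 106, 105 and 108 TPM in HEL loss cells against 51.1, 46.8, 46.1, 60.9 and 52.7 TPM in HEL controls, and at 18.5, 22.7, 18.1 and 14.8 TPM in CpG loss cells against 11.1, 7.48, 5.47 and 6.4 TPM in CpG controls. The CpG loss libraries of Gna15 were all below the HEL controls, although higher than their own controls without overlap.

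Sit1 is a transmembrane adaptor that recruits the phosphatase Shp2 in lymphocytes. It was at 35.8, 39, 39.6, 39.1 and 44.1 TPM in HEL loss cells against 8.59, 8.01, 10.2, 9.48 and 10.4 TPM in HEL controls. With CpG it was at 10.4, 10.9, 9.46 and 5.51 TPM in loss cells against 4.35, 1.74, 1.62 and 1.63 TPM in controls, where the lowest loss library, 5.51 TPM, was just above the highest control, 4.35 TPM. Cabp4, a calcium-binding protein known from photoreceptor synapses, was 5.30 to 7.49 TPM in HEL loss cells against 0.593 to 0.839 TPM in controls. Prkra, a double-stranded RNA-binding activator of the kinase PKR, had small ratios, 1.17 with HEL and 1.03 with CpG.

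Genes of the cell surface and of secretion formed another group. Serpinf1 encodes a secreted serpin, also called pigment epithelium-derived factor, and had the largest HEL ratio, a log2 of 2.79. It was at 10.7, 10.4, 8.31, 6.1 and 6.82 TPM in HEL loss cells against 0.247, 0.248, 0.668, 0.398 and 0.277 TPM in HEL controls, and at 11.3, 12, 6.73 and 5.25 TPM in CpG loss cells against 1.13, 1.24, 1.31 and 1.22 TPM in CpG controls. The low control values rest on 4 to 11 recovered reads with HEL and 11 to 15 with CpG. Rhbdf1, an inactive rhomboid that moves the protease Adam17 to the surface, was at 58.8, 56.1, 49.7, 63.9 and 57 TPM in HEL loss cells against 14, 11.1, 11.6, 13.6 and 19.4 TPM in controls. With CpG it was at 15.1, 12.9, 16.3 and 12.8 TPM in loss cells against 3.92, 2.68, 4.7 and 3.42 TPM in controls. The CpG loss libraries lay within the range of the HEL controls.

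Spn encodes Cd43, a sialylated surface protein that marks B-1 and activated B cells and is low on resting FO cells. It was at 39.8, 36.4, 33.2, 31.3 and 36.2 TPM in HEL loss cells against 15, 17.5, 18.7, 13.4 and 12.5 TPM in controls, and at 28, 28.2, 24.8 and 20.01 TPM in CpG loss cells against 6.72, 8.69, 7.3 and 13.2 TPM in controls. In both stimuli the groups of Spn were apart by less than 2-fold at their nearest libraries. App, the amyloid precursor protein, had log2 ratios of 1.86 with HEL and 1.11 with CpG, and Apobr, a receptor for lipoproteins in macrophages, 1.25 and 1.08.

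Cyp4f16, a cytochrome P450, was at 10.3, 8.95, 9.14, 9.92 and 9.76 TPM in HEL loss cells against 1.61, 1.66, 1.84, 1.69 and 1.05 TPM in HEL controls, and at 6.66, 4.94, 7.71 and 6.67 TPM in CpG loss cells against 2.06, 0.91, 1.09 and 1.39 TPM in CpG controls. Tbc1d9, a Rab GTPase-activating protein, was at 12.1, 18.4, 14.2, 16 and 16.5 TPM in HEL loss cells against 2.68, 1.57, 2.39, 2.98 and 2.3 TPM in HEL controls. Its CpG values, 6.84, 5.67, 13 and 11.2 TPM in loss cells against 3.68, 1.56, 3.43 and 1.68 TPM in controls, were apart but varied more than 2-fold within each group. Ptov1, an adaptor protein named for its overexpression in prostate tumours, was at 33.1, 30.5, 22.9, 34.5 and 27.2 TPM in HEL loss cells against 5.87, 6.48, 5.83, 7.27 and 11 TPM in HEL controls, and 38.8, 45, 26.1 and 26.7 TPM in CpG loss cells against 12.2, 8.57, 8.88 and 8.19 TPM in CpG controls.

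The gene listed as 2210013O21Rik is Nbdy in RefSeq, the source of the microprotein NoBody that binds mRNA decapping factors. It was at 31.3, 31.9, 26.7, 24.2 and 24.8 TPM in HEL loss cells against 7.74, 6.05, 5.73, 7.45 and 4.71 TPM in HEL controls, and at 36.8, 38.9, 34.2 and 34.8 TPM in CpG loss cells against 10.8, 10.7, 9.44 and 12.1 TPM in CpG controls. The groups were apart in both stimuli. Tnni2, the fast skeletal muscle troponin I, was also expressed in these B cells. It was at 106, 101, 101, 82.3 and 84.5 TPM in HEL loss cells against 18.6, 21.1, 22.2, 24.5 and 15 TPM in HEL controls. With CpG it was at 16.9, 20.8, 13.9 and 11.2 TPM in loss cells against 6.92, 5.73, 2.51 and 3.72 TPM in controls. Tmem205, a membrane protein, was at 4.21, 6.75, 5.27, 5.47 and 5.73 TPM in HEL loss cells against 0.919, 0.839, 0.824, 0.54 and 0.563 TPM in HEL controls, and at 5.58, 7.52, 7.35 and 8.67 TPM in CpG loss cells against 1.4, 1.9, 2.66 and 1.78 TPM in CpG controls. Ppt2, a lysosomal thioesterase, and Rgag4, a retrotransposon-derived Gag-like gene that RefSeq names Rtl5, had HEL ratios of 1.77 and 1.73.

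Among the most abundant members, Trappc5 and Zfp385a stood out by level. Trappc5, a subunit of the TRAPP complex that tethers vesicles between the endoplasmic reticulum and the Golgi, was at 214, 246, 276, 246 and 246 TPM in HEL loss cells against 109.5, 121, 115, 118 and 130.2 TPM in HEL controls. With CpG it was at 294, 327, 253 and 272 TPM in loss cells against 142, 135, 123 and 113 TPM in controls, and both ranges overlapped those with HEL. Zfp385a, a zinc finger protein that binds RNA and p53, was at 209, 186, 159, 187 and 219.6 TPM in HEL loss cells against 38.8, 37.6, 49.1, 47.3 and 35 TPM in HEL controls. With CpG it was at 55.9, 67.5, 31.3 and 30.2 TPM in loss cells against 30.3, 15.5, 14 and 11.4 TPM in controls. The highest CpG control of Zfp385a, 30.3 TPM, and the lowest CpG loss library, 30.2 TPM, gave the only overlap in the set, and they were in different blocks.

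H1f0, the linker histone of differentiated cells, had a HEL ratio of 2.56, the second largest, from 11, 14, 12.4, 12.8 and 22.1 TPM in loss cells against 1.61, 2.06, 2.18, 1.26 and 1.04 TPM in controls. Ndrg1, a stress-responsive gene studied as an anergy factor in T cells, was at 7.9, 6.42, 6.37, 7.87 and 13.2 TPM in HEL loss cells against 0.924, 1.41, 1.38, 0.794 and 2.11 TPM in HEL controls, and at 5.53, 6.39, 8.9 and 10.1 TPM in CpG loss cells against 2.5, 2.22, 3.81 and 3.26 TPM in CpG controls. Every loss library of Ndrg1 was above every control in both stimuli. Tmem180, a transporter of the major facilitator family that RefSeq names Mfsd13a, had log2 ratios of 2.19 with HEL and 1.06 with CpG. Its CpG controls, at 5.8, 4.86, 6.11 and 5.1 TPM, lay above its HEL controls, at 1.17, 0.649, 0.518, 1.3 and 0.499 TPM. Other members were B230217C12Rik, with log2 ratios of 2.49 and 1.45 with HEL and CpG, Avpi1 with 1.13 and 1.1, Ccdc28b with 1.24 and 1.00 and Aldh3b1 with 1.43 and 1.00.

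Near the threshold, Prkra, Ccdc28b and Aldh3b1 were the 3 members with the smallest ratios, with smaller-of-both log2 values of 1.03, 1.00 and 1.00. Prkra was at 14.7, 16.5, 15.5, 14 and 13.2 TPM in HEL loss cells against 6.04, 5.12, 6.19, 6.45 and 6.12 TPM in HEL controls, and at 12.2, 12, 8.91 and 9.38 TPM in CpG loss cells against 5.74, 4.12, 4.48 and 4.46 TPM in CpG controls. Ccdc28b was at 108, 103, 96.6, 91.3 and 86 TPM in HEL loss cells against 34, 37.3, 41.5, 47.2 and 43.5 TPM in HEL controls, and at 43, 44.8, 39.8 and 39.7 TPM in CpG loss cells against 21.8, 17.3, 18.8 and 23.5 TPM in CpG controls. Aldh3b1 was at 46.6, 50.03, 40.5, 43 and 51.6 TPM in HEL loss cells against 18.5, 16.9, 15.6, 20.2 and 11.8 TPM in HEL controls, and at 29.8, 35.1, 27.7 and 24.8 TPM in CpG loss cells against 20.6, 14.7, 9.97 and 11.2 TPM in CpG controls. All 3 were higher in loss cells without overlap in both stimuli. Just outside were Ssbp4 at 0.95, Rgl1 at 0.94 and Trip10 at 0.91. Ssbp4 was 91.0 TPM on average in HEL loss cells against 46.7 TPM in HEL controls.

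**Figure D2:**
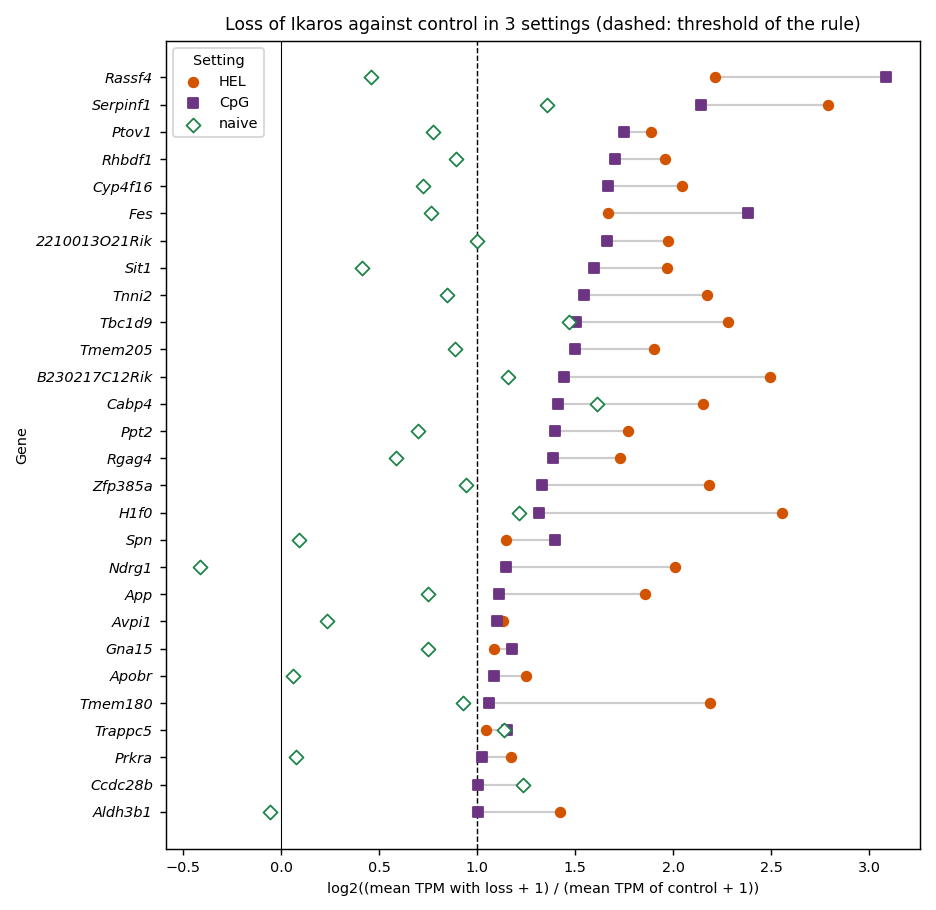
Log2 ratio of loss over control for 28 of the 29 genes, with 1 TPM added to each mean, in HEL (circles), CpG (squares) and naive cells (diamonds). The dashed line is the threshold of 1 used to choose the genes in HEL and CpG. The naive diamonds, which the rule did not use, lie right of 0 for 26 of the genes drawn and are smaller than the HEL circles for most.

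In naive cells, which took no part in the choice of genes, 27 of the 29 had a higher mean in loss cells than in controls and 24 were higher in both loss libraries than in both controls. The background was 31.9% of 10526 genes with a higher mean and 11.5% higher without overlap, and 28.9% of these genes were lower without overlap. Of the members, 1, Ndrg1, was lower without overlap. With median-ratio scaling, which moved the median of all genes to -0.01, 25 members were higher without overlap, against 19.2% of genes, and 19.2% of genes were lower. The median log2 difference of the 29 was 0.79, against -0.12 for the 10526 genes. Of the 29, 28 passed the filter on low values for the test (1 TPM or more in at least 2 libraries), 3 of them, Serpinf1 and Cabp4 included, only through the loss libraries.

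No single member passed the test in naive cells. With 2 libraries a group, limma with Benjamini-Hochberg adjustment over 10053 genes called 0 members. It called 2 genes in all, both higher (0.0199%, with 0% lower). At an unadjusted p under 0.05 it had 20 members, all higher, against 2.99% of genes higher and 896 genes in either direction. These 20 include the 3 members that entered only through the loss libraries, Cabp4 among them. For those 3 the filter fixed the direction. The closest members were Trappc5, at 268 and 303 TPM in loss cells against 125 and 134 TPM in controls (log2 difference 1.14 ± 0.15 SE, adjusted p = 0.0523, limma), and Cabp4, at 3.51 and 3.07 TPM in loss cells against 0.581 and 0.225 TPM in controls (1.62 ± 0.26, adjusted p = 0.0859, limma). Zfp385a was at 164 and 134 TPM in loss cells against 76.8 and 77.2 TPM in controls (0.94 ± 0.16, adjusted p = 0.103, limma). The number of members called higher depended on the fit: 5 with limma's voom on recovered reads, 9 with a term for sex and 12 where all groups shared 1 estimate of the spread, where 0.398%, 1.03% and 1.14% of genes were called higher. These fits called no member lower. Each of these counts includes at least 1 member that entered only through the loss libraries. Serpinf1 and Cabp4 are in the 9 and in the 12. The shared estimate of the spread drew also on the HEL and CpG libraries, which chose the genes. A term for sex, with 2 libraries a group, left little to estimate the spread from.

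Fes, a signalling member, was at 44 and 39.9 TPM in naive loss cells against 25 and 23.6 TPM in their controls. Sit1 was already high in both, at 42 and 53.6 TPM in loss cells against 34.4 and 37 TPM in controls, above its CpG loss level. Tnni2 was at 36.4 and 43.5 TPM in loss cells against 24.2 and 19.3 TPM in controls. Rhbdf1 was at 19.4 and 20.1 TPM in loss cells against 12 and 8.41 TPM in controls. Each of these 4 was higher in both loss libraries than in both controls.

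Rassf4, which had the largest CpG ratio, had 1 naive loss library just above the controls, at 33.9 and 20.7 TPM in loss cells against 19 and 20.2 TPM in controls. Spn was at 24 and 21.2 TPM in loss cells against 21 and 21.2 TPM in controls, and its groups overlapped. Aldh3b1, an aldehyde dehydrogenase, was at 29 and 26.1 TPM in loss cells against 36.4 and 21 TPM in controls, with overlap. Ndrg1 was the one member with the opposite order without overlap, at 0.402 and 0.554 TPM in loss cells against 0.823 and 1.12 TPM in controls, and these low values failed the filter, so no test was made. The 4 naive libraries of this comparison held transcripts of neutrophils, 22.3 to 79.2 TPM in loss cells and 37.6 to 95.1 TPM in controls summed over 6 markers, against 0 to 0.652 TPM in the anergic and naive libraries of the later series. Their part in the naive values was not tested.

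Members at lower levels in naive cells were read the same way. Serpinf1 was at 3.88 and 1.81 TPM in loss cells against 0.716 and 0.288 TPM in controls, from 60 and 27 against 9 and 4 recovered reads. Its groups were apart, though at a few TPM or less. Tbc1d9 was at 15 and 7.55 TPM in loss cells against 2.91 and 3.97 TPM in controls. H1f0 was at 25.2 and 20.1 TPM in loss cells against 13.8 and 4.6 TPM in controls, with the controls far from each other. Tmem180 was at 5.47 and 4.26 TPM in loss cells against 2.14 and 2.03 TPM in controls, and App at 10.9 and 9.33 TPM in loss cells against 6.05 and 5.19 TPM in controls. All 5 were higher in both loss libraries than in both controls, and none passed the adjusted threshold.

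**Figure D3:**
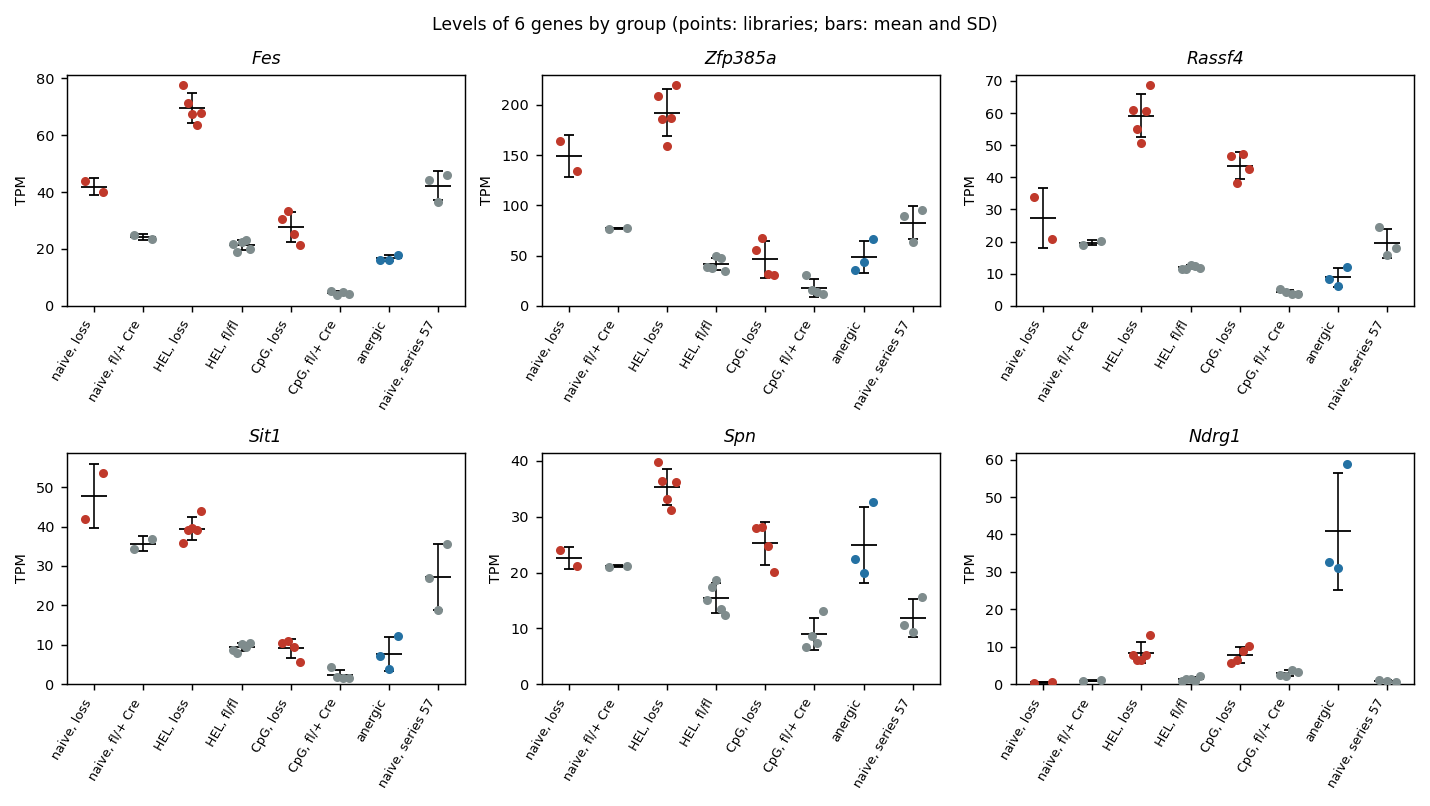
TPM of 6 members in every library, by group, as points, with the mean (long tick) and SD (bars). Loss groups are red, anergic cells blue and controls grey. HEL loss points lie above all HEL control points in the 6 panels, and Ndrg1 is highest in anergic cells, at 31.0 to 58.9 TPM, while Fes, Rassf4 and Sit1 are lower there than in naive cells of the same series.

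Markers of other cell types were summed beside the set. The sum of 14 myeloid markers was 168 to 214 TPM in naive loss cells against 227 to 228 TPM in controls, 115 to 147 TPM in HEL loss cells against 124 to 170 TPM in HEL controls, and 66.0 to 115 TPM in CpG loss cells against 76.7 to 207 TPM in CpG controls. Its genes did not move together. Tyrobp, the largest in HEL controls, was at 17.4 to 27.8 TPM in HEL loss cells against 71.9 to 99.0 TPM in HEL controls. Of the 14, 5 were higher without overlap with HEL, against 8.99% of genes: Cd68 at 21.8 to 29.6 TPM in loss cells against 5.64 to 10.3 TPM in controls, Csf1r at 2.01 to 4.19 TPM in loss cells against 0.215 to 0.636 TPM in controls, Ccr2 at 1.85 to 5.51 TPM in loss cells against 0 to 0.177 TPM in controls, and also Mpeg1 and Fcgr1. With CpG, 2 were higher without overlap, Cd68 and Ccr2, against 11.9% of genes. In naive cells 4 were, Ccr2, Fcgr1, Itgam and Cebpb, against 11.5%. Lower without overlap with HEL were 3, Tyrobp, Emr1 and Cd14, against 16.3%. With CpG 2 were lower, Csf3r and Tyrobp, against 8.62%, and in naive cells 2, Tyrobp and Emr1, against 28.9%. These shares are over genes with a mean of 1 TPM or more. Ccr2 was only 0.139 to 0.162 TPM in naive loss cells and 0.198 to 0.391 TPM in CpG loss cells. The sum of 8 dendritic cell markers was higher with loss: 16.9 to 24.1 TPM in HEL loss cells against 4.49 to 7.66 TPM in HEL controls, 29.2 to 38.5 TPM in CpG loss cells against 12.7 to 27.7 TPM in CpG controls, and 28.2 to 42.8 TPM in naive loss cells against 9.27 to 14.9 TPM in naive controls. Most of that sum was Flt3, a receptor that lymphoid progenitors also carry, at 9.46 to 17.6 TPM in HEL loss cells against 2.68 to 5.83 TPM in HEL controls. Siglech, a marker of plasmacytoid dendritic cells, was 1.49 to 2.90 TPM in HEL loss cells against 0 to 0.0386 TPM in HEL controls, but near 0 in both CpG groups, at 0 to 0.0545 TPM in loss cells and 0 TPM in controls. The sum of 8 T cell markers was 67.7 to 108 TPM in HEL loss cells and 47.6 to 84.2 TPM in controls, nearly all of it Lck, which B cells also express, with Cd3e at 0 in all HEL loss libraries. The sum of 14 lymphoid progenitor markers, Flt3 among them, was higher with loss without overlap, at 270 to 410 TPM in HEL loss cells against 220 to 258 TPM in HEL controls, 96.2 to 124 TPM in CpG loss cells against 52.7 to 75.9 TPM in CpG controls, and 1175 to 1203 TPM in naive loss cells against 890 to 967 TPM in naive controls. With HEL and in naive cells most of it was Vpreb3, and with CpG Myb and Flt3. The sum of 7 plasma cell markers was 171 to 210 TPM in HEL loss cells against 140 to 161 TPM in HEL controls, and overlapped with CpG and in naive cells. With HEL, 1 of the 7 was higher without overlap, Xbp1, at 116 to 147 TPM in loss cells against 66.7 to 84.6 TPM in controls. Another 3, Igj, Prdm1 and Fkbp11, were lower without overlap, against 16.3% of genes. The sum of 6 neutrophil markers was 0 to 19 TPM in CpG loss cells against 0 to 126 TPM in CpG controls. The part of these transcripts in the members' levels was not tested.

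The promoters of the members were read as a description of sequence. RefSeq windows of 300 bases, from 250 before to 50 after the start, were found for 21 of the 29 genes (27 windows, build GRCm38.p6, which is not the mm9 build named for the files). The GGGAA core of Ikaros sites was in the windows of 16 of these 21 genes, 76.2%, and in 65.5% of all 27025 genes with a window, counting both strands. The longer TGGGAA, which overlaps it, was in 5 of the 21, 23.8%, against 28.3% of all genes. The PU.1-type GAGGAAGT was in 3, Apobr, Cyp4f16 and Ppt2, 14.3% against 3.69%, and the AP-1-type TGACTCA in 2, 9.52% against 5.95%. Median GC content was 59.7% in the members' windows against 52.7% in all windows. A match is letters in a window, not a bound site.

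The windows of 4 genes are shown, without the 50 bases after the start. Fes and Gna15 fell and Spn rose in anergic cells, and Tmem180 has the most GGGAA copies of any member's window, 4 in the whole 300 bases. Capitals mark GGGAA, or TTCCC where it lies on the other strand.
Fes, chr7:80387947-80388196, minus strand: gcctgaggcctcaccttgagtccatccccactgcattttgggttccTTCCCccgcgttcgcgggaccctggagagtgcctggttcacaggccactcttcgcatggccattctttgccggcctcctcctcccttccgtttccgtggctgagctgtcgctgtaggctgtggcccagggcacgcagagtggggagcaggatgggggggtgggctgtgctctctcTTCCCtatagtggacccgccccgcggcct
Gna15, chr10:81524226-81524475, minus strand: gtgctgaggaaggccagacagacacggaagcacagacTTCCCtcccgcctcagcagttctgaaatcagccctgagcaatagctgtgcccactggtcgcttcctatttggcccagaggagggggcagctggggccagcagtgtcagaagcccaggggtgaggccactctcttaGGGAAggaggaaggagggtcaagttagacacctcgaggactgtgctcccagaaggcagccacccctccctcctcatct
Spn, chr7:127137824-127138073, minus strand: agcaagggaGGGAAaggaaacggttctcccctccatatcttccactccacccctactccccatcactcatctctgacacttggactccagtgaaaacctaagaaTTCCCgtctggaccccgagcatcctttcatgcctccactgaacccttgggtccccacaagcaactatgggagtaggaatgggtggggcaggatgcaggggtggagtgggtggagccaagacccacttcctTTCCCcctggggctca
Tmem180, chr19:46356630-46356879, plus strand: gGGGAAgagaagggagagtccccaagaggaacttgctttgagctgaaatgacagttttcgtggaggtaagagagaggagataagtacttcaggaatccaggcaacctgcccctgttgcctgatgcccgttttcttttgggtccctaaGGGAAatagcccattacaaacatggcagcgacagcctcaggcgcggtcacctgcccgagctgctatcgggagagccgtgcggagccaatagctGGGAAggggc
In the printed 250 bases Fes and Gna15 have 2 copies each and Spn and Tmem180 3 each, and 1 copy in Tmem180 extends to TGGGAA. The members lie on 13 chromosomes, and no member had another within 4 protein-coding genes.

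In anergic cells, whose genotypes all keep at least 1 working Ikzf1 allele, 9 of the 29 had a higher mean than in naive cells of the same series, against 62.8% of the 10526 genes. Members lower without overlap numbered 9, against a background of 9.54%, and 4 were higher without overlap, against 19.3%. Leaving out anergic library 3 or naive library 2 raised the lower count to 15, against backgrounds of 13.6% and 11.9% in these settings. Of the 24 members tested, 3 rose and 6 fell (limma, adjusted p under 0.05), against 4.48% and 2.89% of the 10519 genes tested, or 471 and 304 genes. With median-ratio scaling the same 9 members were called, of 403 genes higher and 438 lower. The 5 not tested, Serpinf1, Tbc1d9, B230217C12Rik and Cabp4 among them, did not reach 1 TPM in 3 of the 6 libraries. Over all 29 the median log2 difference was -0.32, against 0.06 for the 10526 genes.

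**Figure D4:**
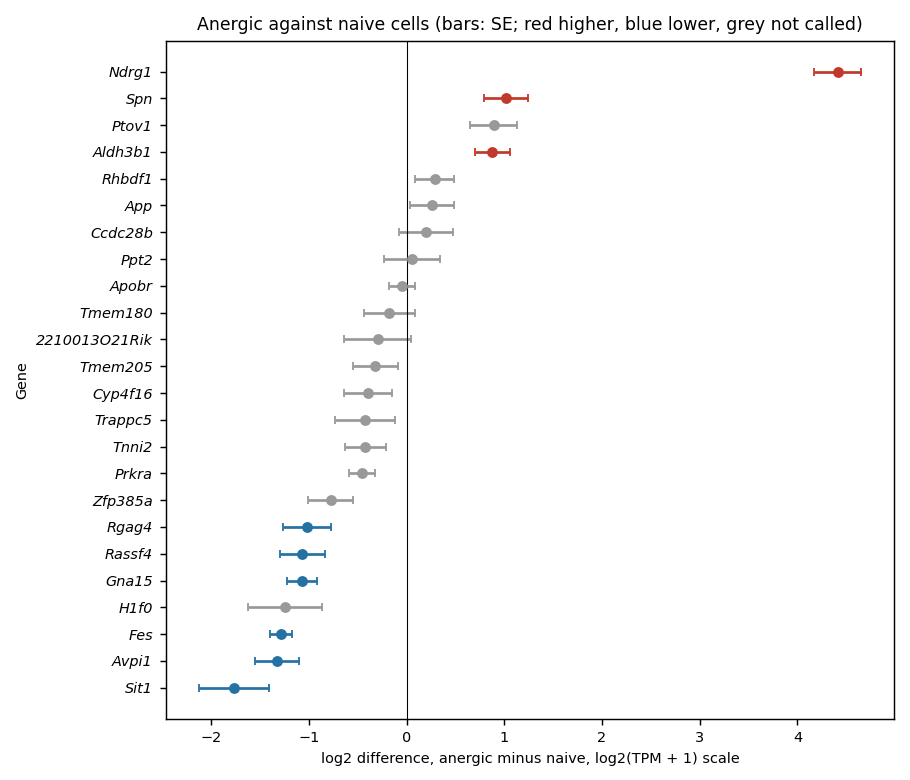
Log2 difference of anergic minus naive cells for the 24 members tested, on the log2(TPM + 1) scale, with the SE of the limma fit as bars. Red genes rose and blue genes fell at adjusted p under 0.05. Ndrg1 is far above the rest at 4.41, and Sit1 is lowest at -1.77.

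Ndrg1 rose most. It was at 32.6, 31 and 58.9 TPM in anergic cells against 1.2, 0.853 and 0.64 TPM in naive cells, a log2 difference of 4.41 ± 0.24 (SE, adjusted p = 7.63e-05, limma). Its anergic level was thus above that of HEL loss cells, 8.35 ± 2.82 TPM (SD, n = 5), in every library. Spn rose by 1.01 ± 0.22 on the log2 scale (adjusted p = 0.0320, limma), at 22.4, 19.9 and 32.7 TPM in anergic cells against 10.5, 9.37 and 15.7 TPM in naive cells. Aldh3b1 rose by 0.88 ± 0.18 (adjusted p = 0.0229, limma), at 28, 22.5 and 38.4 TPM in anergic cells against 16.2, 15 and 14.7 TPM in naive cells. The anergic and naive libraries of all 3 did not overlap.

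The 6 that fell were Fes, Gna15, Sit1, Rassf4, Avpi1 and Rgag4. Fes was at 16, 16.2 and 17.9 TPM in anergic cells against 44.4, 36.5 and 45.9 TPM in naive cells, a difference of -1.28 ± 0.11 (adjusted p = 0.000666, limma). Gna15 was at 22.6, 24.7 and 24.6 TPM in anergic cells against 54.8, 40.1 and 61.6 TPM in naive cells (-1.07 ± 0.15, adjusted p = 0.00549, limma). For both, the highest anergic library was far below the lowest naive one, and the 3 anergic libraries were close to each other. Sit1 was at 7.11, 3.76 and 12.3 TPM in anergic cells against 26.9, 18.8 and 35.7 TPM in naive cells (-1.77 ± 0.36, adjusted p = 0.0237, limma). Rassf4 was at 8.43, 6.26 and 12 TPM in anergic cells against 24.4, 15.8 and 18.1 TPM in naive cells (-1.07 ± 0.23, adjusted p = 0.0285, limma). Avpi1, a gene induced by vasopressin, was at 2.87, 3.3 and 6.17 TPM in anergic cells against 11.9, 12.2 and 9.99 TPM in naive cells (-1.32 ± 0.23, adjusted p = 0.0119, limma). Rgag4 was at 1.39, 1.13 and 2.31 TPM in anergic cells against 5.54, 2.85 and 4.56 TPM in naive cells (-1.02 ± 0.24, adjusted p = 0.0436, limma). All 6 were lower without overlap.

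Calls of Ndrg1, Fes and Gna15 held in all 6 fits that left out 1 library, but the others did not: Avpi1 was called in 4, Rassf4, Sit1 and Spn in 3, and Rgag4 and Aldh3b1 in 2. Without anergic library 1 or naive library 1, none of these 6 was called. Without naive library 3, Rassf4, Sit1, Rgag4 and Aldh3b1 were not called, without naive library 2 Spn and Aldh3b1, and without anergic library 2 Rgag4. All 6 kept their direction, for example Spn at 0.81 to 1.22 and Sit1 at -2.13 to -1.39 over the 6 fits. In the list of 9 marginal zone and B-1 markers, 3 of 9 tested rose and 1 fell, with Spn among those that rose. Of 7 Rassf family genes tested, none rose and Rassf4 fell. In the same libraries the T cell marker sum was 79.6 to 115 TPM in anergic cells against 8.90 to 16 TPM in naive cells, nearly all Lck, with Cd3e at 0 to 0.0975 TPM in anergic cells. The myeloid sum was 85.6 to 104 TPM in anergic cells against 170 to 307 TPM in naive cells. Most of it was Tyrobp, at 53.6 to 72.2 TPM in anergic cells against 126 to 258 TPM in naive cells. Of the 14 myeloid markers, 5 were lower and 1 higher without overlap, against 9.54% and 19.3% of genes. The part of these transcripts in the members' differences was not tested.

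The other abundant members did not pass the test. Zfp385a was at 35.8, 43.9 and 66.8 TPM in anergic cells against 89.7, 63.9 and 95 TPM in naive cells (-0.78 ± 0.23, adjusted p = 0.0881, limma). With a term for Cre, which 1 library of each group carries, Zfp385a was called lower (-0.78, adjusted p = 0.0340, limma), as it was without anergic library 3 (-1.03, adjusted p = 0.0164), and over all its other alternatives the adjusted p was 0.0555 to 0.264. Trappc5 was at 107, 122 and 195 TPM in anergic cells against 228, 115 and 236 TPM in naive cells, with the second naive library near the lowest anergic one. Rhbdf1 was at 36.7, 47.4 and 26.1 TPM in anergic cells against 26.8, 27.4 and 33.4 TPM in naive cells, with overlap. Ccdc28b, a coiled-coil protein known as a modifier of a ciliary disease, was at 24.7, 21.9 and 42.4 TPM in anergic cells against 29.8, 17.5 and 28.8 TPM in naive cells, and Tnni2 at 16.8, 12.2 and 23.2 TPM in anergic cells against 22.7, 26.4 and 20.2 TPM in naive cells. The groups of these 5 overlapped.

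Of the members below the filter, Tbc1d9 was at 0.431, 0.176 and 0.622 TPM in anergic cells against 5.003, 0.997 and 7.57 TPM in naive cells, lower without overlap but with naive libraries far from each other. Serpinf1 was at 0.281, 0.259 and 0.533 TPM in anergic cells against 0.825, 0.825 and 0.496 TPM in naive cells, and Cabp4 at 0.684, 0.45 and 1.27 TPM in anergic cells against 0.782, 0.704 and 1.03 TPM in naive cells, both with overlap. H1f0 was at 4.41, 1.35 and 4.42 TPM in anergic cells against 14.2, 7.2 and 6.41 TPM in naive cells, lower without overlap (-1.25 ± 0.38, adjusted p = 0.0893, limma). Ptov1 was at 11, 19.1 and 19.6 TPM in anergic cells against 9.35, 6.13 and 9.57 TPM in naive cells, higher without overlap (0.89 ± 0.24, adjusted p = 0.0630, limma). Neither passed the threshold. Of the 6 fits that left out 1 library, 1 called Ptov1 higher, that without anergic library 1, and 0 called H1f0. In 1 fit over all groups H1f0 was called lower (adjusted p = 0.0108, limma), Ptov1 higher (adjusted p = 0.0136) and Prkra lower (adjusted p = 0.0148). That fit took its spread also from the HEL and CpG libraries, which chose the genes.

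The libraries with Cre and 1 floxed allele allow 1 more description within each group. In anergic cells the library with Cre was above both without Cre for 24 of the 29 members, against 24.9% of the 10526 genes. In naive cells it was above both for 13 of the 29, against 53% of genes. The second value is below and the first above its background, and in each group there is only 1 library with Cre, so neither is a replicated difference. In a limma fit with a Cre term over both groups, 22 of 24 members had a difference above 0, against 44.4% of genes, and the median was 0.35 against -0.02 for all genes. In that fit 0 members and 0 genes (0%) were called, with 5 members higher at an unadjusted p under 0.05, against 2.26% of genes. Cre, the deletion of 1 allele and the single library cannot be told apart.

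Levels in the stimulated groups are compared with those in naive cells of series 57 as a description only: levels in the stimulated libraries chose the genes, so nothing is read from these counts. The mean of all 29 was higher in HEL loss cells than in naive cells, against 28.7% of genes, while 5 of the 29, B230217C12Rik, Spn, Ndrg1, Ccdc28b and Aldh3b1, were higher in HEL controls than in naive cells, against 29.3%. Fes was at 69.6 ± 5.28 TPM in HEL loss cells (SD, n = 5) and 21.3 ± 1.73 TPM in HEL controls (n = 5). It was at 16.7 ± 1.02 TPM in anergic cells (n = 3) and 42.3 ± 5.03 TPM in naive cells (n = 3). Its HEL controls were below its naive cells without overlap, and its anergic cells were below its HEL controls without overlap. Zfp385a had 192 ± 23.5 TPM in HEL loss cells, 41.6 ± 6.24 TPM in HEL controls, 48.8 ± 16.1 TPM in anergic cells and 82.9 ± 16.6 TPM in naive cells, and its anergic and HEL control libraries overlapped. In CpG cells, which came from another library series, 23 of the 29 had a higher mean in loss cells than in these naive cells, against 54.4% of genes, and 11 of the 29 in controls, against 54.6%.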

How the data were processed

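RNA-seq libraries of sorted mouse FO B cells were analysed, 28 of 40 samples. The samples for chromatin accessibility (8, ATAC-seq) and factor binding (4, ChIP-seq) were not analysed here. The authors deposited TPM values, 1 file per library with 24732 genes. Per the submitters' processing notes, the series used build mm9, featureCounts 1.5.0, TopHat 1.4.1, Bowtie, deepTools 3.0.1 and also SAMtools 1.4. The role of each tool, the annotation and the strandedness are not given in the sources used here. Genes on opposite strands may therefore share reads.

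Whole reads were recovered from the TPM steps (tolerance 0.01) for 18843 of 18843 genes above 0, and gave depth. The test was limma's moderated one (version 3.58.1, R 4.3.3), fitted to log2(TPM + 1) with its trend option, two-sided, with Benjamini-Hochberg adjustment over all genes tested, called at adjusted p under 0.05. Genes entered with 1 TPM or more in at least 2 libraries (naive) or 3 (anergic). The log2(TPM + 1) scale understates changes of low genes. Values after ± are SE beside a log2 difference and SD beside a TPM.

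Tests compared groups within a library series, the first digits of the library numbers (36, 49 or 57), and 1 alternative fit took its spread from all series. That spread includes the HEL and CpG libraries, which chose the genes. Levels set side by side across series are descriptions. The members and gene lists were chosen with earlier results of these data known. Library values are given for the 12 members with the largest ratios, members called in either test, the 8 most abundant in naive cells, members of a marker list, and members at the threshold, with group means or ratios for genes just outside it. A few others, Cabp4, H1f0, Tmem180 and App among them, were added after their values were seen. 1 of the 29 genes is counted but not reported here by name or drawn.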

Additional observations from a re-analysis of the deposited data

Results flagged for a closer look

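In groups of 4 or 5 libraries, 1 library stood far from the others of its group in 9 of 116 combinations of gene and group, where chance flags about 1 in 20. Ptov1 was high in HEL control library 5, at 10.98 TPM, and in CpG control library 1, at 12.2 TPM. Sit1 was high in the same CpG control library, at 4.35 TPM. Cyp4f16 was low in HEL control library 5, at 1.05 TPM. B230217C12Rik was low in CpG loss library 4, at 6.18 TPM, and high in CpG control library 2, at 3.63 TPM. App was low in that control library, at 2.79 TPM. H1f0 and Ndrg1 were high in HEL loss library 5, at 22.1 and 13.2 TPM. All 9 values still lay on their own group's side of the other group.

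Ndrg1 had opposite orders of loss and control libraries in naive and stimulated cells. Its log2 ratio in naive cells was -0.41, with both loss libraries below both controls, while every loss library was above every control with HEL and with CpG. This difference between settings was not tested. In naive cells Ndrg1 failed the filter, with 12 and 16 recovered reads in loss libraries against 20 and 30 in controls. Of the 10526 genes, 28.9% were lower without overlap in that comparison.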

How the results depend on the processing

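The rule gave 30 genes with a pseudocount of 0.1 and 10 with 5, and 26 to 33 when 1 library was left out. In naive cells, median-ratio scaling called 1 member higher, with 15 genes higher and 1 lower. Voom on recovered reads called 5 members higher (40 genes higher, 18 lower), 1 fit over all groups 12 (115 and 303) and a term for sex 9 (104 and 136). The 5, the 12 and the 9 each include at least 1 member that entered only through the loss libraries. Genes called higher were 0, against 2, with a pseudocount of 0.1, with no filter, with a filter on the mean over all libraries, and in every fit without 1 library (lowest 0, highest 0).

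In anergic cells, no filter left 1 member higher and 3 lower, with 368 genes higher and 211 lower of 16834. Voom called 509 genes lower, and 1 fit over all groups 837 higher and 477 lower, with 4 members higher and 8 lower. Without 1 library, members called were 1 to 3 higher and 2 to 7 lower, and genes 199 to 711 higher and 124 to 442 lower. Scaling moved the split of called genes to 403 higher and 438 lower, against 471 and 304. Also without 1 library, a setting chosen after seeing the data, members lower without overlap numbered 9 to 15, against 11.2% to 16.4% of genes, and higher 4 to 6, against 21.8% to 33.0%. In naive cells these were 25 to 26 higher, against 19.2% to 26.1%, and 1 to 2 lower, against 36.7% to 56.7%.

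Signs turned only for members not called. In naive cells Aldh3b1 was 0.10 with scaling and 0.12 with voom, and -0.39 to 0.37 without 1 library, Apobr -0.083 to 0.21 and Prkra -0.023 to 0.17. In anergic cells Ppt2 was -0.0033 with scaling and -0.26 to 0.26 without 1 library, Apobr -0.10 to 0.017 and Ccdc28b -0.081 to 0.38. The causes were not tested. No paired analysis was possible because replicate numbers were given in accession order and name libraries only. The terms for sex and Cre are covariates, not replicate pairs, and the term for Cre called 1 more member, Zfp385a. A term for sex could not be fitted in anergic cells, where all libraries have Y-linked transcripts. Low members rest on few reads, and 2 libraries a group limit the naive test.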
